A study of Homo sapiens with 9 samples.

Results

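The Hippo pathway and the genes its coactivators YAP and TAZ switch on were read as 36 genes, 23 pathway components and 13 target genes, on 9 Affymetrix whole-transcript arrays of the prostate cancer cell line 22Rv1. The members were found by gene symbol, with CYR61 and CTGF accepted as the older names of CCN1 and CCN2. Of the 36 genes, 34 had a transcript cluster that carries their symbol alone, 22 components and 12 targets, out of 22465 genes with such a cluster. Where a gene had several, the brightest stood for it. AMOT and FSTL1 lay only on clusters that also carry the symbol of a microRNA and are given apart.

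The 3 conditions had 3 arrays each. KD cells were 22Rv1 cells transfected with a plasmid shRNA against SSX2, a cancer-testis antigen that this line makes in large amounts. SCR cells carried a scrambled shRNA, and the labels describe neomycin selection for the transfected cells. WT cells were untransfected. All 9 samples come from the same parent line, and the labels give no other treatment. The KD arrays stand for 1 transfected line, so that its other differences from the parent cannot be told apart from the loss of SSX2, and the sources used here do not name the hairpin it carries. The design text calls the 3 arrays of a condition technical replicates, so every p-value below measures only the spread between arrays. All levels are log2 intensities as deposited, a difference of 1 is a 2-fold change, and a gene passed the test when its limma p-value, Bonferroni adjusted over 67528 transcript clusters, was under 0.05.

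In the Hippo pathway the kinases STK3 and STK4, held by the scaffold SAV1, switch on LATS1 and LATS2 with their partners MOB1A and MOB1B. The LATS kinases phosphorylate YAP1 and WWTR1 (TAZ), which then stay out of the nucleus or are degraded. Unphosphorylated YAP and TAZ enter the nucleus and bind the TEAD factors, which hold the DNA. The pathway is known for restraining growth at high cell density and for reading adhesion and tension. An array measures RNA and reads neither phosphorylation nor the place of YAP in the cell.

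TEAD factors bind the motif GGAATG, so the promoters of CCN2 and ANKRD1, the pair of targets used most often as readouts of YAP activity, are shown first. The 250 bases before each start site were read from RefSeq promoter windows (GRCh38.p14), 5′ to 3′ on the gene's strand, with every GGAATG (or its reverse complement CATTCC) and every AP-1 motif TGANTCA in capitals.
CCN2, chr6:131951373-131951622, minus strand: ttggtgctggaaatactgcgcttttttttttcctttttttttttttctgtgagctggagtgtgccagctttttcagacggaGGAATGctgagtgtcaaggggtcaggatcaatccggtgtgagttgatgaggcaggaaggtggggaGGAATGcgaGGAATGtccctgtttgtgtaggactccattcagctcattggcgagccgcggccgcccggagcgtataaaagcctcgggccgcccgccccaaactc
ANKRD1, chr10:90921088-90921337, minus strand: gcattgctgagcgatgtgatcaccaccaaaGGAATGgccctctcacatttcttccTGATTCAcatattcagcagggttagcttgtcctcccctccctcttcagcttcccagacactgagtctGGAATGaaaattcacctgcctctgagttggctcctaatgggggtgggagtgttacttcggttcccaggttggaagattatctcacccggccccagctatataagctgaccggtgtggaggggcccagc
The CCN2 window held GGAATG 3 times, beginning 169, 104 and 95 bases before the start. The ANKRD1 window held it at 220 and 128 bases before the start, with TGATTCA between them at 195. Among all 35116 promoter windows of 300 bases (250 before to 50 after a start), 4928 (14.0%) held GGAATG on either strand, 482 (1.37%) held it 2 or more times and 45 held it 3 or more times. The AP-1 motif was in 2707 windows (7.71%).

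Windows were found for 29 of the 36 genes. A GGAATG match in at least 1 window was present in 8 of the 29 (27.6%), against 4567 of 27305 genes (16.7%). The other 6 were YAP1, LATS2, AMOTL2, AJUBA, PTPN14 and VGLL1. For the first 5, all of which rose in KD cells, the 30 bases around the match show how different the settings of the same letters are.
PTPN14, chr1:214551785-214551814, minus strand: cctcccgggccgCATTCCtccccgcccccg
AJUBA, chr14:22976884-22976913, minus strand: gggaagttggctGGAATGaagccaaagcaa
AMOTL2, chr3:134374499-134374528, minus strand: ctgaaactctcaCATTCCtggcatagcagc
LATS2, chr13:21061560-21061589, minus strand: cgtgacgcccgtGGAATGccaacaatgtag
YAP1, chr11:102110273-102110302, plus strand: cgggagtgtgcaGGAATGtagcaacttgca
The AJUBA and AMOTL2 matches lay in 1 of 2 windows of each gene, and the LATS2 match began 9 bases after the start. AP-1 motifs were found for ANKRD1, F3, LATS1 and MOB1B. Among the genes with a window, 7 of the 17 that rose held a TEAD motif and 1 of the 10 that did not pass held one. TEAD1, CCN1, CRIM1 and ASAP1 also rose but had no window. The members were chosen with earlier results known and no such split was computed over all genes, so nothing is read from these counts. MYOF and NT5E, which had some of the greatest rises, held neither motif in their windows. A match is a string of letters and not a shown binding site, and no match says only that the letters are not in this window.

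The KD arrays stood well apart from both controls. Their correlations over all transcript clusters were 0.956 to 0.961 with SCR and WT arrays, against 0.995 to 0.996 between SCR and WT arrays. The clusters annotated to SSX2 and its copy SSX2B fell as the labels state. On the brighter of 2 such clusters the level was 5.13 ± 0.07 (SD, n = 3) in KD cells, against 11.94 ± 0.00 in SCR cells and 11.92 ± 0.05 in WT cells. The labels give an average RNA integrity number of 2.50, a low value, for the extracts. Levels of luminal prostate markers moved too, with 5 of 8 measured markers lower in KD cells (KLK2 by 3.91 on the log2 scale), while KRT8, KRT18 and EPCAM did not pass. Of all genes, 7.6% were lower against SCR. The mean level of the 8 was 7.77 to 7.84 on KD arrays, 9.33 to 9.35 on SCR arrays and 9.10 to 9.15 on WT arrays. Fibroblast markers had mean levels of 4.61 to 4.65 on KD arrays and 4.86 to 4.96 on control arrays, endothelial markers 5.00 to 5.07 and 4.94 to 5.08, and none of the 16 measured genes of these lists was higher in KD cells (limma, 1 at an unadjusted p under 0.05). Against SCR, 1 of the 9 measured fibroblast markers passed as lower, and no endothelial marker did. Of 6 leukocyte markers, CD68 alone rose, by 2.19, and of 4 basal markers none passed. The part of these shifts in the results below was not tested, and in such bulk RNA a change in the share of cells of one kind and a change of RNA per cell cannot be told apart.

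Many members of the list passed as higher in KD cells, and none of the 34 passed as lower. The cluster shared by AMOT and MIR4329, not counted among the 34, passed as lower against SCR (-0.73) and WT (-0.58). Against SCR, 10 of 22 components and 11 of 12 targets were higher, 21 genes in all. For comparison, 7.78% of the 22465 genes were higher and 7.6% were lower. The list was chosen with earlier results of these data known, so the shares over all genes give scale and are no independent test. The median difference was 2.29 over the targets and 0.45 over the components, against -0.06 over all genes. Against WT the same 21 genes were higher and none was lower, again 10 components and 11 targets, against 7.83% of genes higher and 7.45% lower. At an unadjusted limma p under 0.05, 26 members were higher and 4 lower against SCR (24% and 33.1% of genes), and 27 were higher and 4 lower against WT (24.3% and 34.7% of genes). The one-way test named in the study's methods, run with Bonferroni adjustment and with each gene's variance taken from its own arrays, called 6 of the 21 genes against SCR (TEAD1, MYOF, NT5E, CRIM1, ASAP1 and PTPN14) and the same genes without NT5E against WT. The other 15 calls, YAP1, WWTR1, LATS2, FRMD6, CCN1, CCN2 and ANKRD1 among them, were made by limma and not by that test in either comparison. Both comparisons use the same 3 KD arrays. A difference of 2-fold or more was reached by 10 of the 11 targets that rose and by 5 of the 10 components. The 3 KD arrays lay above all 3 SCR arrays for 27 of 34 members (79.4%, against 26.2% of genes) and below them for 5 (39.1% of genes). With the Benjamini-Hochberg adjustment, 15 components and 11 targets were higher, and LATS1, VGLL4 and LIMD1 were lower, where 21.9% of genes were higher and 28.5% lower.

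**Figure D1:**
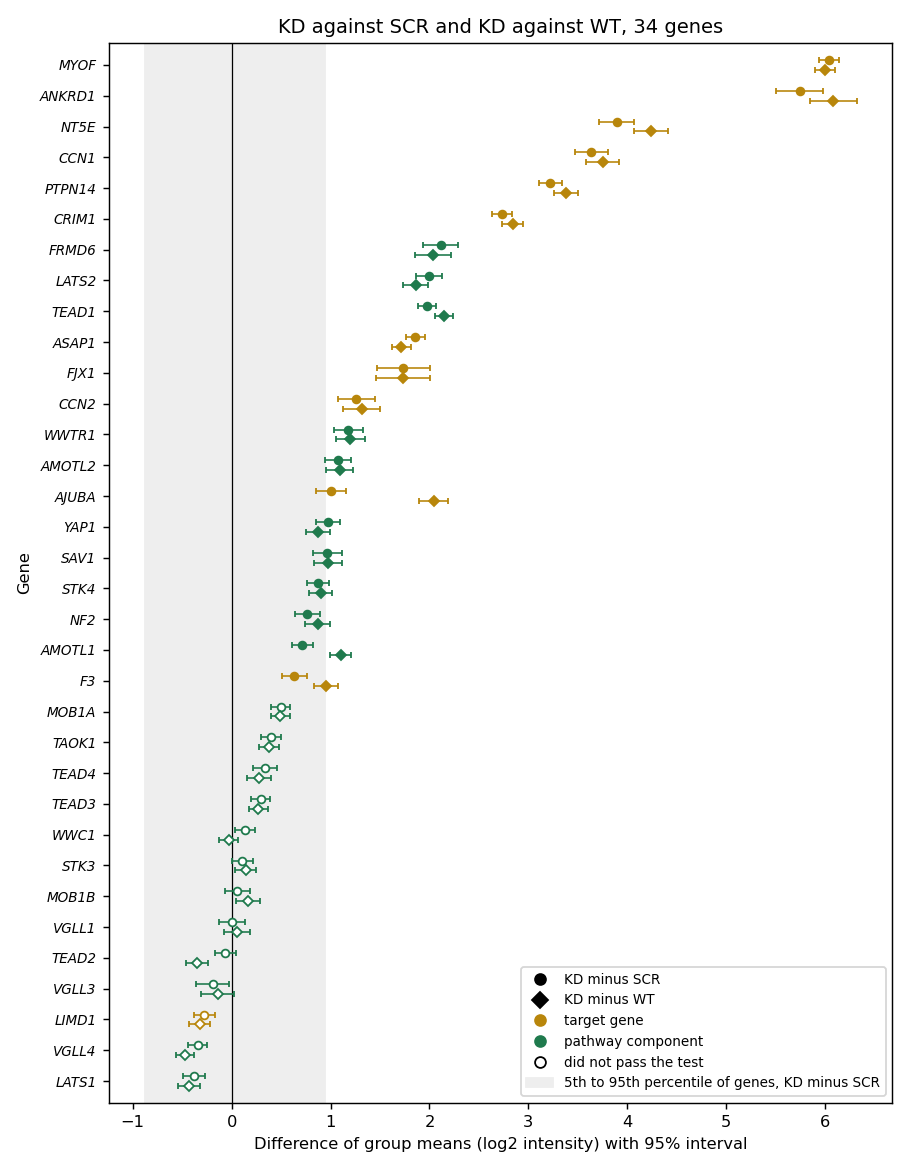
Difference of group means on the log2 intensity scale for the 34 genes, KD minus SCR (circles) and KD minus WT (diamonds), with 95% intervals from limma. Filled symbols passed the test, open symbols did not, and the grey band spans the 5th to the 95th percentile of the KD minus SCR difference over 22465 genes (-0.88 to 0.95). MYOF and ANKRD1 lie near 6, and the open symbols all lie between -0.5 and 0.5.

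Both coactivators rose. YAP1 read 9.06, 9.05 and 8.98 on the KD arrays, 7.97, 8.07 and 8.12 on the SCR arrays and 8.14, 8.21 and 8.13 on the WT arrays. Its KD arrays lay above all control arrays, and SCR and WT arrays were close to each other. The rise was 0.98 ± 0.05 (SE) against SCR, or 1.97-fold, with an adjusted p of 0.000924. WWTR1, which encodes TAZ, read 7.74, 8.01 and 7.90 in KD, 6.71, 6.70 and 6.71 in SCR and 6.68, 6.64 and 6.73 in WT. No KD array overlapped a control array here either, and the rise was 1.18 ± 0.07 (adjusted p = 0.00105).

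Of the TEAD factors, TEAD1 was the member that rose. Its levels were 9.99, 9.97 and 9.95 in KD, 8.01, 7.99 and 7.99 in SCR and 7.82, 7.81 and 7.85 in WT, with little spread in any group. The difference from SCR was 1.97 ± 0.04, a 3.93-fold rise (adjusted p = 1.33e-07). TEAD3 and TEAD4 differed by 0.29 and 0.34 against SCR without passing (adjusted p = 1 for both), though their KD arrays lay above every control array. TEAD2 read 7.79 to 7.80 in KD, 7.83 to 7.89 in SCR and 8.07 to 8.22 in WT, so its difference was -0.06 against SCR and -0.35 against WT. That gap between the controls made TEAD2 a gene whose KD value depended on the control chosen. The vestigial-like proteins are other TEAD partners, and VGLL4 is known to compete with YAP for them. VGLL4 read 7.65, 7.70 and 7.72 in KD, 8.04, 8.03 and 8.03 in SCR and 8.16, 8.17 and 8.16 in WT. Its KD arrays were the lowest of the 9, with a difference of -0.34 against SCR (adjusted p = 1) and -0.47 against WT (adjusted p = 0.0686), neither of which passed. VGLL1 and VGLL3 stayed between 4.52 and 4.87 on every array, below the median of all array values (5.46), and at such dim levels a difference is hard to read.

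The kinase core was uneven. LATS2 read 8.82, 8.86 and 8.72 in KD, 6.78, 6.78 and 6.87 in SCR and 7.01, 6.93 and 6.88 in WT, a rise of 1.99 ± 0.06 against SCR (3.98-fold, adjusted p = 2.52e-06). Its KD arrays stood far above both controls, which did not overlap each other but differed little. LATS1, the related kinase, had the opposite order of groups, with 8.17, 8.27 and 8.30 in KD, 8.61, 8.66 and 8.61 in SCR and 8.69, 8.68 and 8.66 in WT. All 3 KD arrays lay below the controls, yet the difference of -0.38 ± 0.05 did not pass (adjusted p = 1). Upstream of them, STK4 (MST1) rose by 0.87 ± 0.05 (adjusted p = 0.00148), from 7.38, 7.37 and 7.45 in SCR and 7.42, 7.38 and 7.31 in WT to 8.25, 8.32 and 8.24 in KD. The scaffold SAV1 rose by 0.97 ± 0.06 (adjusted p = 0.00531), from 8.69 to 8.77 in SCR and 8.68 to 8.74 in WT to 9.81, 9.67 and 9.57 in KD. The SAV1 call was lost without KD array 2, SCR array 1 or SCR array 2 against SCR (0.95 to 0.97) and without KD array 2 or any 1 WT array against WT (0.96 to 0.99). STK3 (MST2) stayed dim, between 5.20 and 5.41 on all arrays. MOB1A, a partner of the LATS kinases, read 9.27 to 9.33 in KD and 8.78 to 8.84 over the 6 control arrays. That gap of 0.50 against SCR fell just short of the threshold (adjusted p = 0.0551). MOB1A passed against both controls with centred arrays (adjusted p = 0.0405 against SCR and 0.0368 against WT), with dim clusters removed (0.0104 and 0.011) and with a trended robust variance (0.00194 and 0.00206). It passed against neither control with quantile normalization or by the one-way test. The same held with only the compared groups in the fit and with the array number as a block. MOB1B differed by 0.06, and its KD and SCR arrays overlapped.

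Among the inputs to the kinases, FRMD6 had the greatest rise of any component against SCR, whereas against WT it rose by 2.03 and TEAD1 by 2.15. This FERM-domain protein read 8.22, 8.36 and 8.04 in KD, 6.05, 6.08 and 6.15 in SCR and 6.25, 6.16 and 6.12 in WT. The arrays of KD cells lay above both controls by far more than the spread among them, and the difference from SCR was 2.11 ± 0.08 (4.33-fold, adjusted p = 2.73e-05). NF2, which encodes the membrane-linked tumour suppressor merlin, read 9.93, 10.11 and 10.09 in KD, 9.25, 9.27 and 9.30 in SCR and 9.20, 9.13 and 9.17 in WT. It rose by 0.77 ± 0.06 (adjusted p = 0.0126), without overlap. That call was lost in 8 of the 9 fits that left out 1 array, the exception being the fit without KD array 1, with differences of 0.73 to 0.78, and against WT (0.87) without WT array 2 (0.85). TAOK1, a kinase that acts on the MST kinases, differed by 0.40 (adjusted p = 0.493), and WWC1 (KIBRA) by 0.13 (adjusted p = 1). Of these, TAOK1 had all KD arrays above all controls, whereas the WWC1 arrays of KD and WT overlapped. The angiomotins bind YAP and hold it at junctions. AMOTL2 read 8.06, 8.08 and 7.94 in KD, 6.99, 6.93 and 6.93 in SCR and 6.94, 6.85 and 7.01 in WT, a rise of 1.07 ± 0.06 (adjusted p = 0.000922). AMOTL1 read 8.35, 8.40 and 8.36 in KD, 7.68, 7.61 and 7.66 in SCR and 7.31, 7.28 and 7.21 in WT. Its 3 groups were separate from each other, so its rise was 0.71 against SCR (adjusted p = 0.00536) and 1.10 against WT. Leaving out any KD array or any SCR array ended the call against SCR (0.69 to 0.73). AMOT itself lay on a cluster annotated to AMOT and MIR4329. That cluster went down, from 7.24, 7.20 and 7.23 in SCR to 6.55, 6.49 and 6.45 in KD, a difference of -0.73 ± 0.05 (adjusted p = 0.00403), and it cannot be assigned to AMOT alone.

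**Figure D2:**
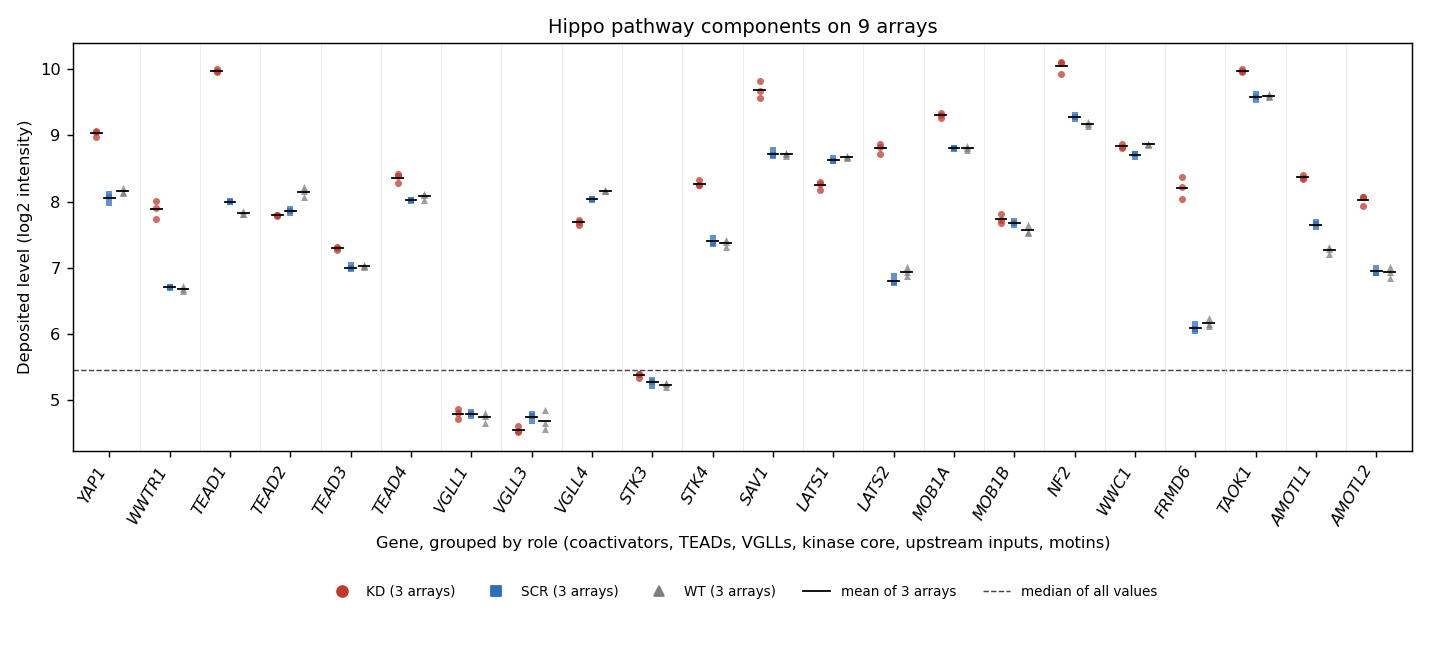
Deposited log2 intensity of the 22 measured pathway components on each of the 9 arrays, by role, with the mean of each group as a bar and the median of all array values (5.46) as a dashed line. KD arrays stand above both controls for YAP1, WWTR1, TEAD1, STK4, SAV1, LATS2, NF2, FRMD6, AMOTL1 and AMOTL2, which passed. They also do so, by less, for TEAD3, TEAD4, STK3, MOB1A and TAOK1, which did not pass. Those of LATS1, VGLL4 and TEAD2 lie below both controls.

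Target genes gave the greatest differences. MYOF, a ferlin of membrane repair and vesicle traffic, read 11.16, 11.09 and 11.10 in KD, 5.10, 5.09 and 5.06 in SCR and 5.15, 5.11 and 5.09 in WT. It went from below the median of all array values in both controls to among the bright genes, a difference of 6.03 ± 0.04 (adjusted p = 7.53e-12), the 5th highest of 22465 genes. ANKRD1, an ankyrin-repeat protein of the nucleus, read 10.54, 10.24 and 10.25 in KD, 4.47, 4.62 and 4.71 in SCR and 4.27, 4.11 and 4.41 in WT. Its difference was 5.74 ± 0.11 (adjusted p = 3.56e-08), the 8th highest. By the one-way test run here the ANKRD1 rise did not pass, with an adjusted p of 0.084 against SCR and 0.091 against WT. That test was not checked against the study's calls, and the study lists ANKRD1 among its highest fold changes. The fitted folds, 65.5 and 53.5, rest on control levels near the dim end of the array, and the true folds may be higher.

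CCN1 and CCN2 encode secreted matricellular proteins. CCN1 read 10.69, 10.45 and 10.43 in KD, 6.96, 6.85 and 6.85 in SCR and 6.83, 6.75 and 6.73 in WT, a rise of 3.64 ± 0.07 (12.4-fold, adjusted p = 1.01e-07). CCN2 read 9.73, 9.59 and 9.40 in KD, 8.24, 8.35 and 8.34 in SCR and 8.32, 8.16 and 8.29 in WT. The CCN2 control arrays of both kinds overlapped and all lay below the KD arrays, and its rise was 1.26 ± 0.08 (2.39-fold, adjusted p = 0.00507). That call was lost without KD array 2, SCR array 1 or SCR array 3, with differences of 1.22 to 1.27, and the call against WT was lost without KD array 2 (1.31).

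Several targets are proteins of the cell surface. NT5E, the ectonucleotidase that makes adenosine outside the cell, read 10.06, 9.99 and 9.91 in KD, 6.04, 6.09 and 6.15 in SCR and 5.90, 5.73 and 5.61 in WT, rising by 3.89 ± 0.08 (14.8-fold, adjusted p = 6.77e-08). CRIM1, a transmembrane protein that binds bone morphogenetic proteins, read 10.59, 10.63 and 10.58 in KD, 7.86, 7.85 and 7.89 in SCR and 7.80, 7.77 and 7.70 in WT, rising by 2.73 ± 0.05 (6.64-fold, adjusted p = 1.49e-08). In both genes the KD arrays stood clear of the controls. F3, tissue factor, which starts blood coagulation, read 8.12, 8.00 and 8.01 in KD, 7.37, 7.43 and 7.42 in SCR and 7.13, 7.12 and 7.01 in WT. The 3 groups of F3 arrays did not overlap, but the rise against SCR, 0.63 ± 0.05, passed only narrowly (adjusted p = 0.04995). That call was lost in each of the 9 fits without 1 array, where the difference ranged from 0.60 to 0.66. Against WT the rise was 0.95 (adjusted p = 0.00132).

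Another group of targets are known also as regulators of the pathway. PTPN14, a phosphatase that binds YAP, read 10.00, 10.14 and 10.04 in KD, 6.83, 6.83 and 6.85 in SCR and 6.73, 6.63 and 6.69 in WT, rising by 3.22 ± 0.05 (9.33-fold, adjusted p = 1.11e-08). AJUBA and LIMD1 are LIM proteins that bind the LATS kinases. AJUBA read 9.60, 9.45 and 9.34 in KD, 8.43, 8.50 and 8.45 in SCR and 7.48, 7.39 and 7.39 in WT. These 3 groups formed steps, so the rise was 1.00 ± 0.07 against SCR (adjusted p = 0.00482) and 2.04 against WT (adjusted p = 7.21e-06). The AJUBA call against SCR was lost without KD array 2, SCR array 1 or SCR array 3 (0.99 to 1.01). LIMD1 was the one measured target that did not pass, with 7.75, 7.88 and 7.79 in KD, 8.08, 8.06 and 8.10 in SCR and 8.14, 8.13 and 8.11 in WT. Its KD arrays were the lowest, by 0.28 against SCR (adjusted p = 1).

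ASAP1, a GTPase-activating protein for Arf proteins, read 9.47 to 9.50 in KD, 7.62 to 7.64 in SCR and 7.73 to 7.79 in WT, rising by 1.86 ± 0.04 (adjusted p = 2.42e-07). FJX1, the human relative of a fly Golgi kinase, had the widest spread of the members among KD arrays, with 7.62, 7.89 and 7.43 in KD, 6.03, 5.95 and 5.75 in SCR and 6.05, 5.81 and 5.89 in WT. Even so no KD array of FJX1 reached down to a control array, and the rise was 1.74 ± 0.12 (adjusted p = 0.00731). The FJX1 call against SCR was lost without KD array 1 or SCR array 2 (1.75 to 1.76), and against WT without KD array 1, WT array 2 or WT array 3 (1.67 to 1.74). FSTL1, a secreted glycoprotein, lay on a cluster annotated also to MIR198, which read 5.94 to 6.11 in KD, 5.85 to 5.87 in SCR and 5.65 to 5.66 in WT. The 0.19 between KD and SCR on that cluster did not pass (adjusted p = 1).

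**Figure D3:**
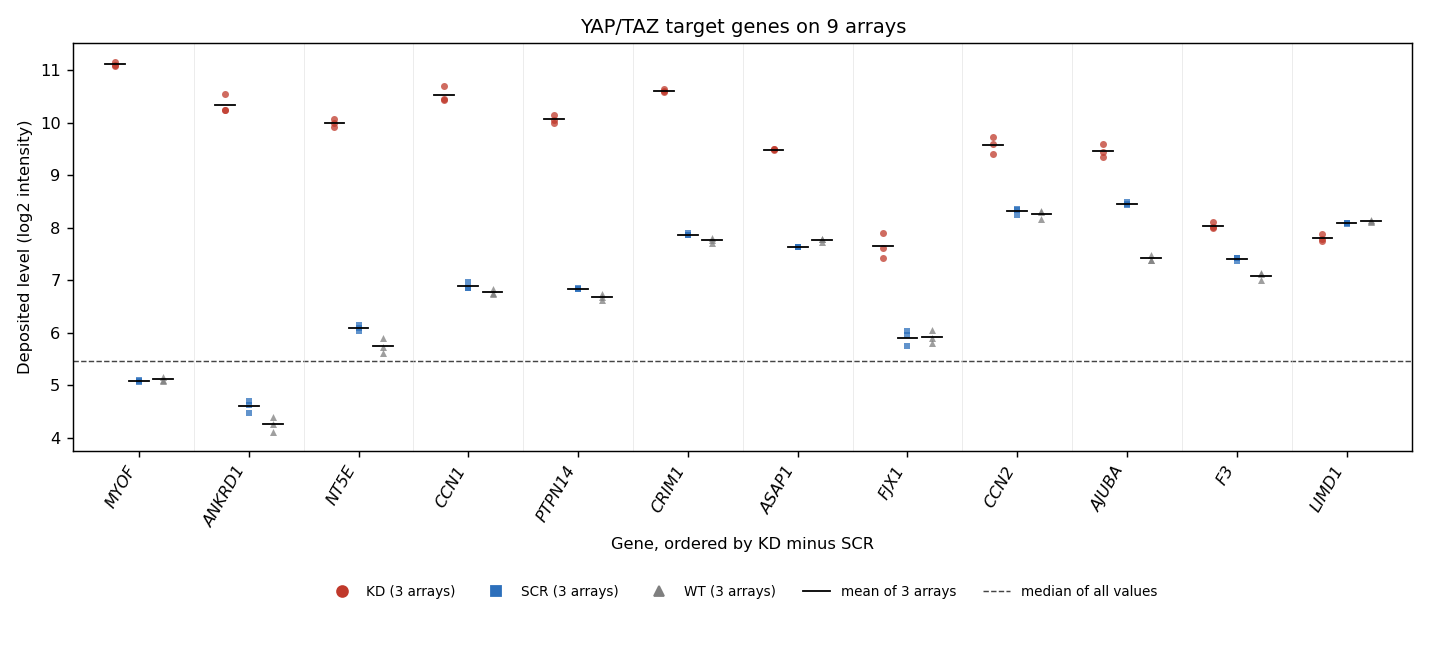
Deposited log2 intensity of the 12 measured YAP/TAZ target genes on each of the 9 arrays, ordered by the KD minus SCR difference, with the mean of each group as a bar and the median of all array values (5.46) as a dashed line. KD arrays lie above all control arrays for 11 genes and below them for LIMD1, and for MYOF and ANKRD1 the control arrays lie under the dashed line.

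The 2 controls were compared in the same way. Of the 34 genes, AJUBA alone passed between SCR and WT, higher in SCR by 1.04 ± 0.07 (adjusted p = 0.00356), against 0.276% of genes higher and 0.174% lower in the same comparison. No member passed as lower in SCR than in WT. At an unadjusted limma p under 0.05, 8 members were higher in SCR, 6 of them targets, and 5 were lower, against 7.25% and 6.75% of genes. The SCR arrays lay above all WT arrays for 7 of the 12 targets (58.3%, against 13.2% of genes). The AJUBA call was lost without WT array 2, where the difference was 1.02. With the Benjamini-Hochberg adjustment AMOTL1 (0.39) and F3 (0.32) were higher too and TEAD2 (-0.29) lower, so that 4 of 34 members differed, where 1.63% of genes were higher and 1.31% lower. The AJUBA step between the controls was about as tall as the step from SCR to KD.

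Pairs of related genes were read against each other. For each array the level of the first gene was taken from that of the second, so that the pair was read within 1 array, and the shift of this difference between KD and SCR was tested by a two-sided exact permutation test, whose smallest possible p with 3 arrays against 3 is 0.1. LATS2 minus LATS1 shifted by 2.37, CCN2 minus CCN1 by -2.38, TEAD4 minus TEAD1 by -1.63 and LIMD1 minus AJUBA by -1.28. Smaller shifts were found for STK4 minus STK3 (0.77), MOB1B minus MOB1A (-0.44) and AMOTL2 minus AMOTL1 (0.36). For these 7 of 8 pairs the KD and SCR arrays did not overlap. Single genes also had no overlap in 26.2% (higher) and 39.1% (lower) of cases, no rate over other gene pairs was computed, and nothing is read from the count. The lack of overlap gives the smallest exact p of 0.1 and an adjusted p of 0.114 over the 8 pairs, so none can pass. WWTR1 minus YAP1 shifted by 0.20 with overlapping arrays (exact p = 0.2, adjusted p = 0.2). Against WT its shift was 0.33, in the same direction but without overlap (exact p = 0.1). Since 0.1 is the smallest possible p, these tests do not tell the 2 controls apart for this pair. The AMOTL pair shifted by -0.01 against WT (exact p = 1) and the AJUBA pair by -2.37 (exact p = 0.1). The other 5 pairs kept their direction against WT, each with an exact p of 0.1.

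**Figure D4:**
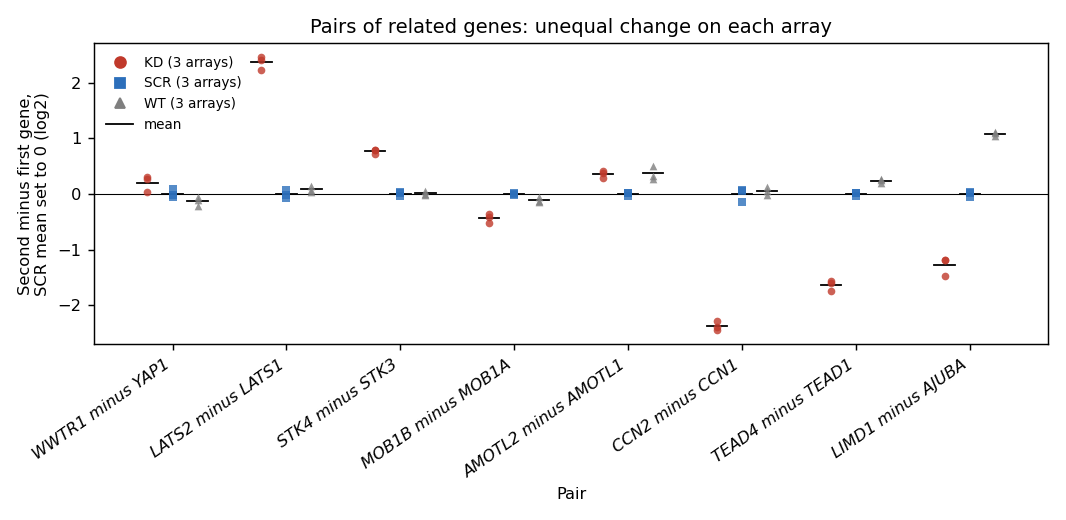
Level of the second gene minus the first on each array for 8 pairs of related genes, in log2 units, with the mean of the SCR arrays set to 0 and group means as bars. The KD arrays of LATS2 minus LATS1 lie near 2.37 and those of CCN2 minus CCN1 near -2.38, while those of WWTR1 minus YAP1 overlap the SCR arrays but not the WT arrays.

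The KD arrays did not rank alike over components and targets. KD array 1 was the highest of the KD arrays for 8 of 12 targets (66.7%), CCN1, CCN2 and ANKRD1 among them, where it was highest for 28.7% of all genes, and KD array 3 was the highest for none. Over the components KD array 2 was highest for 14 of 22 (63.6%, against 36.4% of genes). Such a skew was not particular to KD cells, since WT array 1 was the highest WT array for 10 of 12 targets (83.3%, against 44.7% of genes). The median SD between arrays over the 34 members was 0.07 for KD, 0.03 for SCR and 0.05 for WT cells.

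Genes of the pathway outside the list behaved less evenly. Of 10 other YAP/TAZ targets, 7 were higher in KD cells, 1 was lower and 2 did not pass, with a median of 1.36 against SCR. In the same comparison 7.78% of all genes were higher and 7.6% lower, with a median of -0.06. These lists, too, were chosen with earlier results known. AXL, a receptor tyrosine kinase, read 10.97, 10.99 and 10.98 in KD and 6.20 to 6.26 in SCR, a difference of 4.75. TGFB2, a ligand of the TGF-beta family, read 8.77, 8.63 and 8.55 in KD and 4.65 to 4.84 in SCR, and the RNA-binding protein gene RBMS3 rose by 1.83. IGFBP3, which binds insulin-like growth factors, fell by 2.66, from 10.34 to 10.40 in SCR to 7.59 to 7.85 in KD. Of 42 other Hippo regulators 35 were measured, of which 9 were higher, 1 was lower and 25 did not pass, with a median of 0.18. With the Benjamini-Hochberg adjustment 18 of them were higher and 9 lower, against 21.9% and 28.5% of genes. The polarity scaffold PALS1 (2.22), the atypical cadherin FAT4 (1.91) and the striatin STRN3 (1.40), a subunit of the STRIPAK phosphatase complex that acts on the MST kinases, rose most. FAT1, another atypical cadherin, read 7.36, 7.62 and 7.57 in KD and 8.27, 8.34 and 8.34 in SCR. Its difference of -0.80 was the one fall of the list that passed with the Bonferroni adjustment. The FAT1 call against SCR was lost with either array scaling and in 8 of the 9 fits without 1 array.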

How the data were processed

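The deposited values are log2 intensities that the authors made by RMA, with Affymetrix Expression Console and Transcriptome Analysis Console 3.0 named in the submitters' processing notes. Background, probe set level and genome build are not given in the sources used here. Scanner files were not used. Gene symbols came from the platform annotation: 23781 transcript clusters had 1 symbol, 1543 several and 42204 none. limma 3.58.1 in R 4.3.3 was fitted to all 67528 transcript clusters on the 9 arrays, with group means, 6 residual and 3.34 prior degrees of freedom and Bonferroni adjustment, and checked on simulated data, while 2995 control and other rows were not tested. Every member is named, with the largest 3 rises and falls of the other lists. The members and gene lists were chosen with earlier results of these data known. A limit at the 95th percentile of the background probe sets (9.63) would have placed most genes near background, so the median of all values (5.46) was used as the dim limit. A search of YAP1 and WWTR1 proteins for phosphorylation motifs was not run. The number of arrays limits the precision. Alternatives were other scalings, adjustments, minimum folds, fits and gene rows, the array number as a block, and each array left out. Array numbers were not used to pair the samples in the main fit. One marker list is not reported here.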

Additional observations from a re-analysis of the deposited data

How the results depend on the processing

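No member that passed in a KD comparison changed direction under any alternative. Alternatives that changed the adjustment, minimum fold, variance, groups fitted, replicate block or clusters tested keep the difference itself, so they could not reverse it. Nor could a left-out array, since the KD arrays of these members overlapped no control array. The mean of a gene's rows could not either, since each had 1 row with its symbol alone. Only the other scalings and rows with several symbols could have changed a direction. Of members higher against SCR (10 components, 11 targets) and WT (10 and 11), the Benjamini-Hochberg adjustment gave 15 and 11 against SCR, with 2 components and 1 target lower, and 16 and 11 against WT, with 3 and 1 lower. Between SCR and WT it gave 1 component higher, 1 lower and 2 targets higher. A minimum fold of 2 left 5 components against SCR and 6 against WT, and a fold of 5 left 0 components and 6 targets in each and 0 targets between the controls. The one-way ANOVA run here, which uses each row's own variance in the compared groups, gave 1 component and 5 targets against SCR. It gave 1 and 4 against WT and 0 targets between the controls. TEAD1, MYOF, CRIM1, ASAP1 and PTPN14 passed in both KD comparisons, and NT5E against SCR alone. With only the compared groups in the fit, 7 components and 7 targets were higher against SCR. MOB1A passed with centred arrays (not with quantile normalization), with dim clusters removed and with a trended robust variance. The last 2 settings also made 1 component (VGLL4) lower against WT, and allowing rows with several symbols made 1 (AMOT) lower against each control. Leaving out 1 array gave 7 to 9 components and 8 to 10 targets against SCR, 8 to 10 and 10 to 11 against WT, and 0 to 1 target between the controls. With the array number as a replicate block, 7 components and 9 targets were higher against SCR and 7 and 10 against WT. The deviations of same-numbered arrays correlated at -0.02 to 0.16, which shows no strong pairing but cannot exclude a weaker one.

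Members that did not pass and lay near 0 changed sign. TEAD2 against SCR was 0.00204 with centred arrays and 0.00939 with quantile normalization, WWC1 was 0.044 against WT with centred arrays and -0.0273 against SCR as the mean of its rows, and VGLL1 against SCR ranged from -0.0327 to 0.0425 when 1 array was left out. The MOB1B minus MOB1A shift was -0.36 after quantile normalization. The cause was not tested. Both scalings moved the median over all clusters by under 0.1.

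Precision is limited by 3 arrays a group, technical by their labels, by the low RNA integrity and by the dim levels of VGLL1, VGLL3, STK3 and of ANKRD1 and MYOF in the controls.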
